A study of Mus musculus with 12 samples.

Results

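The genes described here are 10 members of the transforming growth factor beta (TGF-beta) pathway: the ligand Tgfb1, the receptors Tgfbr1, Tgfbr2 and Eng, the signal carriers Smad2, Smad3 and Smad4, and the inhibitors Smad7, Skil and Tgif1. They were chosen by name, as the probe sets annotated to exactly 1 of these symbols. This gave 23 probe sets for 10 of the 18193 genes measured. A probe set is a group of short oligonucleotides on an array that reads 1 transcript or a few variants of it. Each gene is given below by its brightest probe set unless another is named. Values are log2 signals, so a difference of 1 is a doubling of signal. All 10 genes read above the median of all genes, 7.44, on every array, and all 10 passed the filter on low values that was tried as an alternative.

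RNA was measured in KSL cells, bone marrow cells that carry c-Kit and Sca-1 but no lineage markers, a fraction that holds blood stem and early progenitor cells. The arrays formed 4 groups of 3, namely TNF-treated and untreated cells labelled Fancc-/-, and TNF-treated and untreated wild-type cells. All mice were 2 to 4 months old. All cells were kept for 24 h in 10% serum with stem cell factor and IL-11, each at 10 ng/ml, IL-6 at 20 ng/ml and the ligand of Flt3 at 50 ng/ml. TNF, the inflammatory cytokine tumour necrosis factor alpha, was added to the treated cultures at 10 ng/ml. The design of the Fancc allele, the strain and the number of mice per array are not stated in the sources used here. Serum, as background, carries TGF-beta of its own. Nothing in the labels says that replicates are separate mice, and p-values cover only the spread between these arrays, which may in part be technical. The number of arrays limits the precision.

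TGF-beta is secreted in a latent form and, once freed, binds the type II receptor, which recruits and activates the type I receptor. The type I receptor phosphorylates SMAD2 and SMAD3, which join SMAD4 and enter the nucleus to switch genes on or off. SMAD7 blocks the receptor, and the co-repressors encoded by Skil (SnoN) and Tgif1 act against SMAD complexes on DNA. In bone marrow the pathway is known for holding blood stem cells out of cycle.

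Several checks bear on the samples. Fancc, the gene named by the genotype, read 8.87, 9.12 and 8.95 on treated and 9.16, 8.73 and 9.15 on untreated arrays labelled mutant, against 8.40, 8.65 and 8.22 on treated and 8.28, 8.22 and 8.49 on untreated wild-type arrays. It was not lower on any array labelled mutant than on a wild-type array, so the label is used below only as a label. Whether its probes overlap the disrupted sequence is not stated in those sources. The X-linked transcript Xist and the Y-linked transcript Eif2s3y differed between replicates of 3 of the 4 groups, so those replicates did not all share 1 source of cells. Xist read 12.53, 12.61 and 12.20 on treated and 5.12, 12.73 and 12.04 on untreated arrays labelled mutant. In wild type it read 12.52, 12.47 and 13.08 on treated and 5.47, 5.06 and 12.53 on untreated arrays. Xist was thus low on untreated arrays only. Eif2s3y read 10.87, 10.93 and 11.5 on treated and 11.88, 4.16 and 11.32 on untreated arrays labelled mutant. In wild type Eif2s3y read 11.25, 11.16 and 3.79 on treated and 11.66, 11.79 and 10.46 on untreated arrays. Arrays on which both transcripts read high, all treated arrays labelled mutant among them, held RNA of cells of both sexes. The sex of the cells was in part confounded with TNF. A fit with both transcripts as covariates is among the alternatives. All 5 listed NF-kB targets, genes that TNF is known to induce, rose on treated arrays, among them Relb by 3.35 and Tnfaip3 by 3.64 on the log2 scale (limma, adjusted p = 8.26e-09 and 3.07e-08).

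Of the 8 measured stem and progenitor genes, Kit, Cd34, Hlf, Mecom, Flt3 and Cd48 read above the median of all genes on every array, and Slamf1 below it on every array. Procr read below it on 2 untreated arrays, 6.74 and 7.03, and was the list's 1 call, higher by 1.48 with TNF on average (limma, adjusted p = 0.00565). Markers of maturing cells moved with TNF. The summed signal of 10 granulocyte genes was 13.08 to 14.38 on treated and 15.24 to 15.57 on untreated arrays labelled mutant, and 13.30 to 13.69 on treated and 14.93 to 15.27 on untreated wild-type arrays (log2). The 7 measured monocyte genes summed to 13.12 to 14.18 on treated and 14.28 to 14.65 on untreated arrays labelled mutant, and to 13.15 to 13.55 on treated and 14.23 to 14.43 on untreated wild-type arrays. With TNF on average 9 of 10 granulocyte and 4 of 7 monocyte genes fell, and 1 monocyte gene rose. The 5 measured mast cell genes, 2 of which fell, summed to 9.58 to 11.41 on treated and 11.55 to 11.96 on untreated arrays labelled mutant, and to 9.72 to 11.02 on treated and 11.89 to 12.22 on untreated wild-type arrays. All 4 measured genes of the erythroid list and all 4 of the T and NK list were below the median of all genes on every array, as were 3 of 7 megakaryocyte and 3 of 4 B lineage genes. Of these lists, 2 of 7 megakaryocyte and 1 of 4 erythroid genes fell with TNF on average. Of the 4 B lineage genes 1 rose and 1 fell, and 0 of the 4 T and NK genes were called. Among all genes 12.1% were called. The part of these shifts in the results below was not tested. In bulk RNA, fewer cells of a type and less RNA per cell cannot be told apart.

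TNF-treated cells of both genotypes had more transcript of the type II receptor, Tgfbr2, than untreated cells. Averaged over genotype, 3 of the 10 genes rose and 0 fell. Tgfbr2 rose by 0.61 (standard error 0.09), Skil by 0.58 (0.10) and Smad3 by 0.36 (0.07) on the log2 scale, or 1.52-fold, 1.5-fold and 1.28-fold. The other 7, which include the ligand, the type I receptor, Smad2 and Smad4, did not pass the test. Among all genes 12.1% were called in this comparison, 5.81% as higher and 6.32% as lower. The median change of the 10 genes was 0.03, against -0.03 over all genes. Of all calls, 1057 were higher and 1150 lower, against 852 and 1419 with arrays centred on their medians, and 1215 and 979 after cyclic loess.

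**Figure D1:**
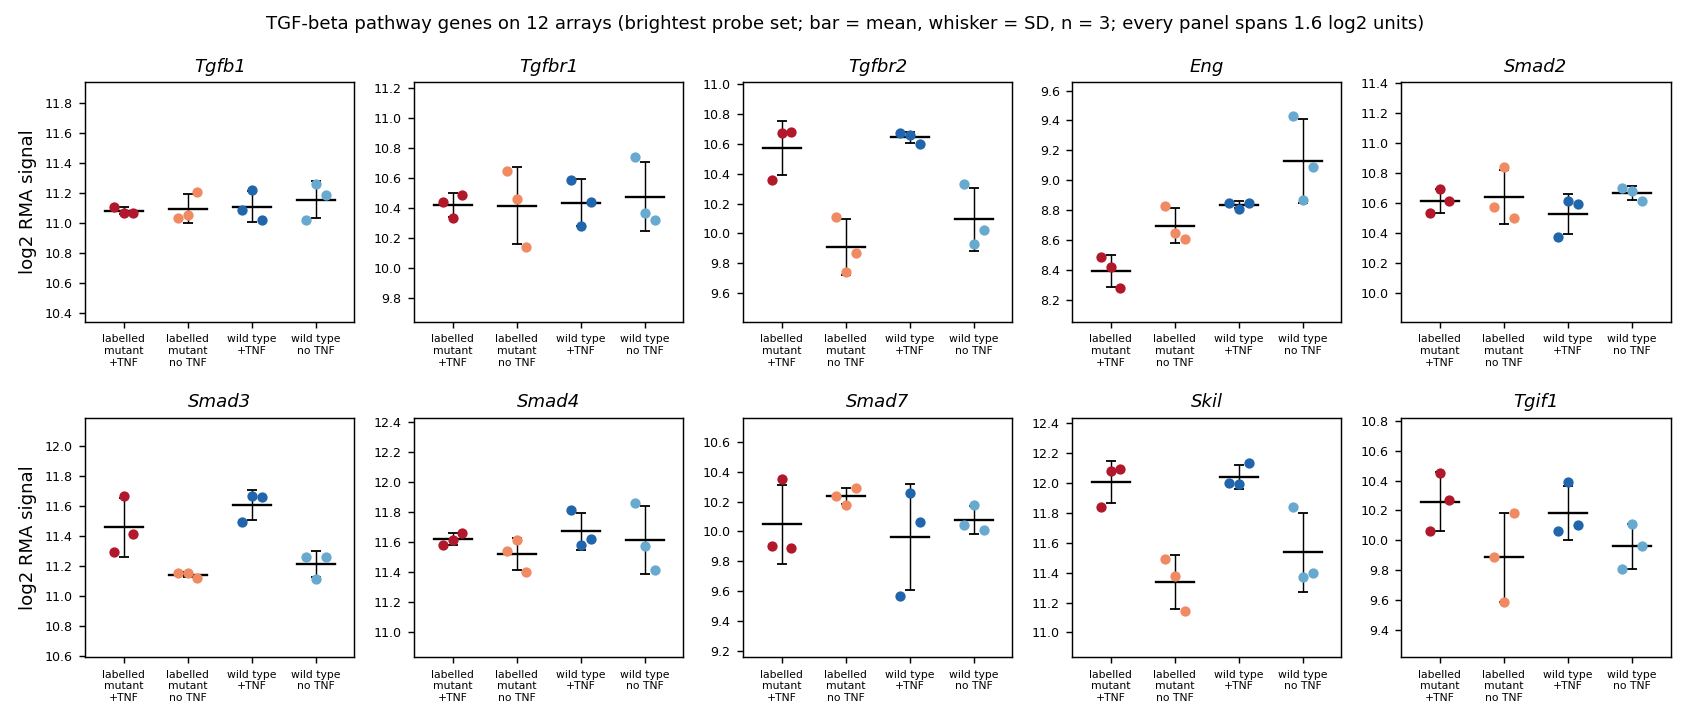
Log2 signal of the 10 TGF-beta pathway genes on each of 12 arrays, with 1 panel per gene and the 4 groups along each panel. Points are arrays, the bar is the mean and the whisker the SD (n = 3), and each panel spans the same width in log2 units around its own level. Tgfbr2, Smad3 and Skil sit higher in both treated groups, and Eng is lowest on treated arrays labelled mutant (mean 8.39).

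The ligand comes first. Tgfb1, which encodes TGF-beta 1, read 11.11, 11.07 and 11.07 on treated and 11.03, 11.05 and 11.21 on untreated arrays labelled mutant, and 11.09, 11.22 and 11.02 on treated and 11.02, 11.26 and 11.19 on untreated wild-type arrays. The 4 groups overlapped, and the 12 values spanned 0.24, the narrowest range of the 10 genes. The change with TNF was -0.03, with a 95% interval of -0.17 to 0.10 (limma, adjusted p = 0.79).

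The type I receptor behaved alike. Tgfbr1, whose kinase phosphorylates SMAD2 and SMAD3, read 10.44, 10.33 and 10.49 on treated and 10.65, 10.46 and 10.14 on untreated arrays labelled mutant, and 10.59, 10.28 and 10.44 on treated and 10.74, 10.37 and 10.32 on untreated wild-type arrays. All groups overlapped, and the change with TNF was -0.02 with a 95% interval of -0.25 to 0.21 (limma, adjusted p = 0.929).

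The type II receptor, which binds the ligand first, moved. Tgfbr2 read 10.36, 10.67 and 10.68 on treated and 10.11, 9.74 and 9.87 on untreated arrays labelled mutant. It read 10.67, 10.66 and 10.60 on treated and 10.33, 9.93 and 10.02 on untreated wild-type arrays. Every treated array was above every untreated one, although the lowest treated array, 10.36, and the highest untreated one, 10.33, nearly met. By mean the order was treated wild type (10.65), treated labelled mutant (10.57), untreated wild type (10.09) and untreated labelled mutant (9.91), and of these neighbours only the middle pair did not overlap. The change was 0.66 on arrays labelled mutant (standard error 0.13, limma, adjusted p = 0.0175) and 0.55 in wild type (0.13, adjusted p = 0.0371), and the average gave an adjusted p of 0.00174.

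Within 1 genotype the Tgfbr2 call was lost when some single arrays were left out, though the change kept its direction. In those fits the change was 0.58 to 0.64 on arrays labelled mutant and 0.47 to 0.58 in wild type. On arrays labelled mutant its adjusted p was 0.0705 and 0.0714 without treated replicates 2 and 3, and 0.0781 and 0.0684 without untreated replicates 2 and 3. In wild type it was 0.0901, 0.0994 and 0.0975 without treated replicates 1, 2 and 3, 0.119 and 0.121 without untreated replicates 2 and 3, and 0.0549 without untreated replicate 3 labelled mutant. With Xist and Eif2s3y as covariates the change was 0.69 on arrays labelled mutant (adjusted p = 0.0526) and 0.70 in wild type (adjusted p = 0.0623). The average over genotype passed without any 1 of the 12 arrays.

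Eng encodes endoglin, a co-receptor for TGF-beta and bone morphogenetic proteins (BMPs) that is known from endothelial cells and also marks mouse blood stem cells. It read 8.49, 8.42 and 8.28 on treated and 8.83, 8.65 and 8.61 on untreated arrays labelled mutant, and 8.85, 8.81 and 8.85 on treated and 9.43, 8.87 and 9.09 on untreated wild-type arrays. Within each genotype every treated array was below every untreated one. Eng had the widest range of the 10 genes over the 12 arrays, 1.15. The change with TNF was -0.30 on arrays labelled mutant (limma, adjusted p = 0.26), -0.29 in wild type (adjusted p = 0.268) and -0.30 on average (standard error 0.09, 95% interval -0.50 to -0.10, adjusted p = 0.0595). Without untreated wild-type replicate 1, which read 9.43, the wild-type change was -0.14 (adjusted p = 0.556) and the average -0.22 (adjusted p = 0.0672). The average passed without untreated wild-type replicate 2 (adjusted p = 0.017) and with arrays centred on their medians (adjusted p = 0.0213).

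Endothelial and stromal genes were set beside Eng. The 9 genes of that list summed to 9.15 to 9.23 on treated and 9.85 to 10.02 on untreated arrays labelled mutant, and to 9.34 to 9.53 on treated and 9.98 to 10.12 on untreated wild-type arrays (log2). The defining endothelial genes Cdh5 and Kdr, and 5 stromal genes, were below the median of all genes on every array. The list's 1 call was Pecam1, which fell with TNF and which blood cells also express.

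The receptor-activated SMADs parted. Smad3 read 11.29, 11.67 and 11.41 on treated and 11.15, 11.15 and 11.12 on untreated arrays labelled mutant, and 11.49, 11.67 and 11.66 on treated and 11.26, 11.11 and 11.26 on untreated wild-type arrays. Every treated array was above every untreated one, 11.29 against 11.26 at the nearest. Smad3 rose by 0.36 on average (limma, adjusted p = 0.00847). The change within 1 genotype was 0.31 on arrays labelled mutant (limma, adjusted p = 0.129) and 0.40 in wild type (adjusted p = 0.0517). With Xist and Eif2s3y as covariates the average change was 0.34 (adjusted p = 0.0841). The change on arrays labelled mutant was 0.21 without treated replicate 2.

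Smad2 read 10.53, 10.69 and 10.61 on treated and 10.57, 10.84 and 10.50 on untreated arrays labelled mutant, and 10.37, 10.61 and 10.59 on treated and 10.70, 10.68 and 10.61 on untreated wild-type arrays. Treated and untreated arrays overlapped on the arrays labelled mutant and were equal at 10.61, to 2 decimals, at their nearest in wild type, and the average change was -0.08 (limma, adjusted p = 0.514). The shared partner Smad4 read 11.58 to 11.66 on treated and 11.40 to 11.61 on untreated arrays labelled mutant, and 11.58 to 11.81 on treated and 11.41 to 11.86 on untreated wild-type arrays. Its average change was 0.08 (limma, adjusted p = 0.594). Another Smad4 probe set, with a mean of 10.6, changed by 0.29 in wild type and 0.09 on arrays labelled mutant. Neither change passed (limma over all probe sets, adjusted p = 0.199 and 0.798), although its treated and untreated arrays did not overlap in wild type. The remaining Smad4 probe set, with a mean of 8.32, changed by -0.004 on average.

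Among the inhibitors, Skil rose. SnoN, its product, represses SMAD targets and is itself degraded when TGF-beta signals. Skil read 11.84, 12.08 and 12.09 on treated and 11.49, 11.38 and 11.14 on untreated arrays labelled mutant. It read 12, 11.99 and 12.13 on treated and 11.84, 11.37 and 11.40 on untreated wild-type arrays. Within each genotype the treated arrays were all above the untreated ones, and across genotypes the groups met at 11.84. The change was 0.67 on arrays labelled mutant (standard error 0.14, limma, adjusted p = 0.0208), 0.50 in wild type (0.14, adjusted p = 0.0686) and 0.58 on average (adjusted p = 0.00285). On arrays labelled mutant the adjusted p was 0.0771 and 0.0782 without treated replicates 2 and 3, and 0.0626 and 0.0851 without untreated replicates 2 and 3. In wild type Skil passed without untreated wild-type replicate 1 (adjusted p = 0.0122).

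Smad7, the inhibitory SMAD that TGF-beta itself induces, read 9.90, 10.35 and 9.89 on treated and 10.24, 10.18 and 10.29 on untreated arrays labelled mutant, and 9.57, 10.26 and 10.06 on treated and 10.04, 10.18 and 10.01 on untreated wild-type arrays. Treated arrays spread on both sides of the untreated ones, and the average change was -0.15 (limma, adjusted p = 0.475). Tgif1, a homeobox co-repressor, read 10.06, 10.45 and 10.27 on treated and 9.89, 9.59 and 10.18 on untreated arrays labelled mutant, and 10.06, 10.39 and 10.10 on treated and 9.81, 10.11 and 9.96 on untreated wild-type arrays. The groups overlapped, and its average change of 0.30 did not pass (standard error 0.11, limma, adjusted p = 0.124). Its change in wild type, 0.22, was 0.12 without treated replicate 2, and that on arrays labelled mutant, 0.37, was 0.22 without untreated replicate 2.

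**Figure D2:**
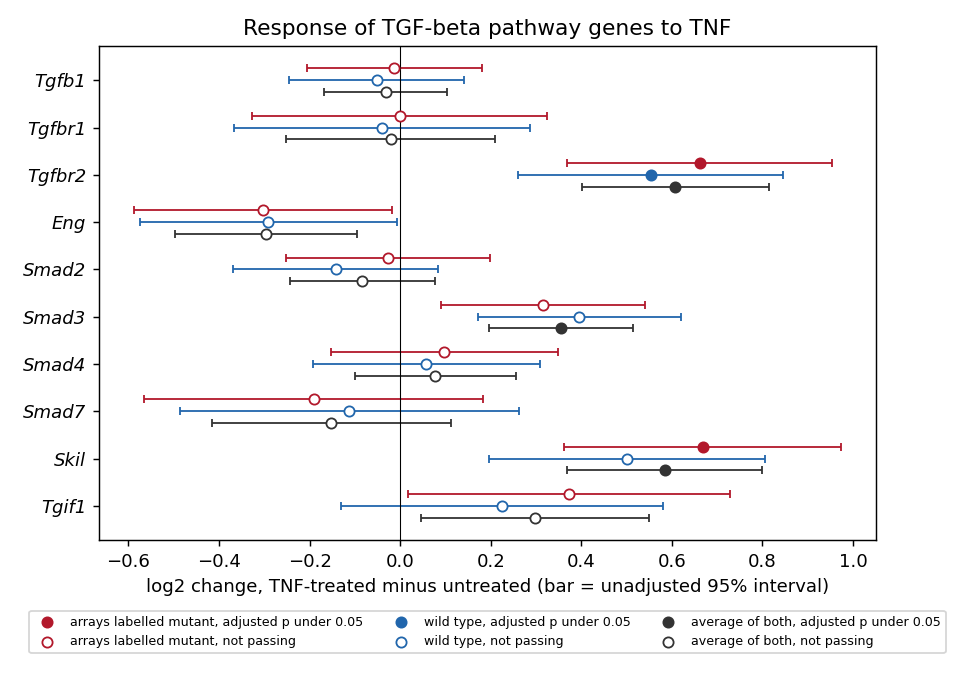
Log2 change with TNF (treated minus untreated) of the 10 genes on arrays labelled mutant, in wild type and averaged over genotype, with 95% intervals from limma and no adjustment for the number of genes. Tgfbr2, Skil and Smad3 have average changes of 0.61, 0.58 and 0.36 with intervals above 0, and those of Tgfb1 and Tgfbr1 lie around 0.

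Counts within 1 genotype were read against all genes. On arrays labelled mutant 2 of the 10 genes were called, Tgfbr2 and Skil, against 4.31% of all genes, and 2.45% as higher. In wild type 1 was called, Tgfbr2, against 5.02% of all genes, and 2.69% as higher. The arrays of treated and untreated cells did not overlap for 4 of the 10 genes on arrays labelled mutant, against 26.2% of all genes, and for 5 in wild type, against 20.6%. Over both genotypes 2 of 10 did not overlap, Tgfbr2 and Smad3, against 7.91% of all genes.

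Of the genes that rose on average, Skil had no window in the promoter set used here. The starts of Tgfbr2 and Smad3 are shown with the motif matches found there. Both are windows of 300 bases, most of them before the RefSeq transcript start (GRCm38.p6). That of Tgfbr2 is at chr9:116175314-116175613 and that of Smad3 at chr9:63757945-63758244, both on the minus strand. Capitals mark a match, on either strand, to a loose form of an NF-kB site (GGG, any 5 bases, CC) or to CAGAC, the SMAD box.
Tgfbr2: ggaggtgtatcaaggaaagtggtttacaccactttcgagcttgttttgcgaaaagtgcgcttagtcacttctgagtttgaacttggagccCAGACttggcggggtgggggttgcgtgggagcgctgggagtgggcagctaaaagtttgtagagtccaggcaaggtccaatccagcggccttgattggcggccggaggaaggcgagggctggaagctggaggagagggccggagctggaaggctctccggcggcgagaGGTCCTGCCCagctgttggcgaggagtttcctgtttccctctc
Smad3: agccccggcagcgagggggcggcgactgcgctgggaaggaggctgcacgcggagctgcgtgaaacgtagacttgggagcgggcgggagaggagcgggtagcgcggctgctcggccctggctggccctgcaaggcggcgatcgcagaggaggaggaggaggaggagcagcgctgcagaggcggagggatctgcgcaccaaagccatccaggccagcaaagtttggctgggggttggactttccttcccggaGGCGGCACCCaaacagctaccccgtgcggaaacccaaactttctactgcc

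Each window held 1 match to the loose NF-kB form, which 50.8% of the 32851 windows of this length in the RefSeq table also hold. Tgfbr2 held 1 CAGAC and Smad3 none, against 49.6% of all windows with a match. The GC box, GGGCGG, was found at 2 places in Smad3 and at none in Tgfbr2, against 35.7% of all windows. The matches did not overlap each other. The stricter NF-kB consensus had 0 matches in either, and 4.51% of all windows hold it. These are letters in a window, not sites shown to be bound.

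No gene of the 10 was called for genotype. Eng came nearest, and read lower on arrays labelled mutant at both treatments. With TNF it was 8.49, 8.42 and 8.28 on arrays labelled mutant against 8.85, 8.81 and 8.85 in wild type, and without TNF 8.83, 8.65 and 8.61 against 9.43, 8.87 and 9.09. Neither pair of groups overlapped. The difference was -0.44 with TNF, -0.43 without and -0.44 on average, and the average had a 95% interval of -0.64 to -0.24 (limma, adjusted p = 0.305). With TNF the adjusted p was 0.542, and without TNF 0.992. Leaving out untreated wild-type replicate 1 gave a difference of -0.28 without TNF. The endothelial and stromal sum was also lower on treated arrays labelled mutant, 9.15 to 9.23 against 9.34 to 9.53 in wild type. All genes of that list but Tek and Pecam1 were below the median on every array. On these treated arrays Tek read 7.44, 7.31 and 7.08 labelled mutant against 8.23, 7.71 and 8.05 in wild type. Pecam1 overlapped, at 8.19, 8.10 and 8.27 against 8.07, 8.60 and 7.98. For other marker lists, the median genotype difference with and without TNF was -0.01 and -0.25 over 8 stem and progenitor genes. It was -0.11 and -0.44 over 7 megakaryocyte genes, and 1.2 and 0.44 over 10 granulocyte genes. Over all genes it was -0.01 at both treatments. No gene of these lists was called for genotype. The part of any of these marker differences in the Eng difference was not tested.

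At an unadjusted p under 0.05, Eng alone of the 10 genes, each read by its brightest probe set, passed in each of the 3 genotype comparisons. The shares of all genes were 5.6% with TNF, 4.12% without and 7.39% on average. Smad2 and Smad4 each had a dimmer probe set that read lower on arrays labelled mutant. The average differences were -0.248 and -0.235 (limma over all probe sets, unadjusted p = 0.00414 and 0.00861, adjusted p = 0.649 and 0.707). Their brightest probe sets differed by 0.03 and -0.07. After adjustment limma called 0.0055% of all genes with TNF, 0.0055% without TNF and 0.022% on average. Non-overlapping groups were found for 1 of 10 genes with TNF and 2 of 10 without, Eng and Smad7, against 11.0% and 8.1% of all genes. Smad7 was higher on untreated arrays labelled mutant, 10.24 on average against 10.08 in wild type, a difference of 0.16 (limma, adjusted p = 0.992). At their nearest these groups were equal at 10.18, to 2 decimals. The other Smad7 probe set overlapped between them and differed by -0.15.

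**Figure D3:**
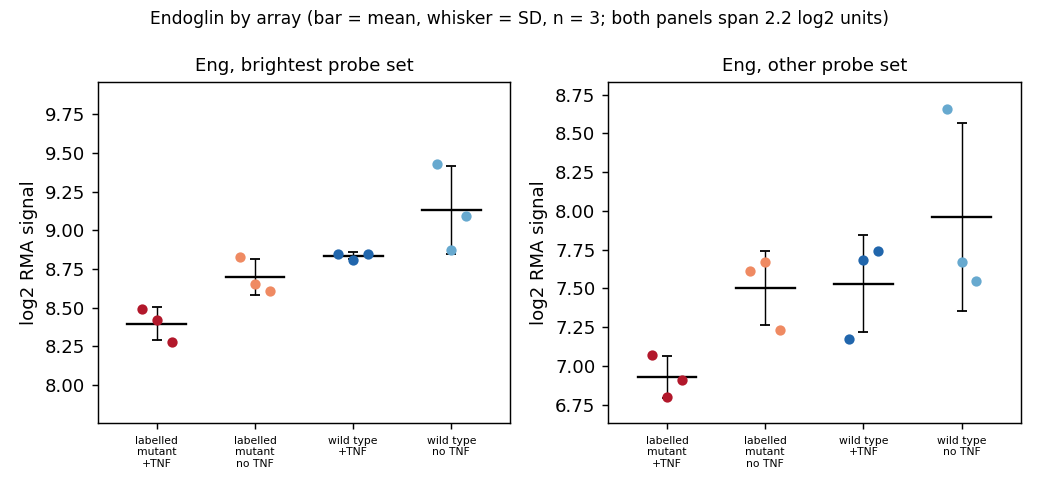
Log2 signal of both Eng probe sets on 12 arrays in 4 groups, with the mean (bar) and SD (whisker, n = 3). The brightest probe set steps down by treatment and by genotype label, with means of 8.39 on treated and 8.70 on untreated arrays labelled mutant and 8.84 on treated and 9.13 on untreated wild-type arrays, and the other probe set has 1 untreated wild-type array at 8.66.

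The response to TNF was not found to depend on the genotype label for any of the 10 genes. In limma's test of the interaction 0 of 10 were called, 0 of 10 had an unadjusted p under 0.05 (2.9% of all genes had), and 0.0% of all genes were called. The change on arrays labelled mutant minus that in wild type was 0.11 for Tgfbr2 (95% interval -0.31 to 0.52), 0.17 for Skil (-0.27 to 0.60), -0.08 for Smad3 (-0.40 to 0.24) and -0.01 for Eng (-0.41 to 0.39). These intervals hold differences as large as some of the changes with TNF themselves.

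Other probe sets did not repeat every call. Of the 13 that were not the brightest of their gene, 0 were called for TNF, in either genotype or on average, by a limma fit over all 45037 probe sets. For TNF averaged over genotype that fit called the brightest probe sets of Tgfbr2, Skil and Smad3 (adjusted p = 0.00326, 0.00529 and 0.0157), 3 of 23 against 7.41% of all probe sets. On arrays labelled mutant it called 2 of 23, Tgfbr2 and Skil, against 2.09%, and in wild type 0 of 23, against 2.58%. Of the 23, 4 were below the median of all probe sets, 6.02, on every array. The dimmer probe sets of Tgfbr2 averaged 3.03 and 5.47 and changed by 0.01 and 0.09, those of Smad3 averaged 5.76 and 6.25 and changed by 0.03 and 0.09, and that of Skil averaged 4.75 and changed by 0.30 (adjusted p = 0.248).

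The second probe set of Eng rested in part on 1 array. It read 7.07, 6.80 and 6.91 on treated and 7.61, 7.67 and 7.23 on untreated arrays labelled mutant, and 7.17, 7.68 and 7.74 on treated and 8.66, 7.67 and 7.55 on untreated wild-type arrays. The treated arrays labelled mutant lay below all others, and in wild type treated and untreated arrays overlapped. Its change with TNF was -0.50 (limma over all probe sets, adjusted p = 0.148), and its genotype difference -0.53 (adjusted p = 0.749). Without the untreated wild-type array at 8.66, the mean change with TNF was -0.33 on average, against -0.50 with it. In wild type it was -0.08, against -0.43, and the genotype difference without TNF was -0.11, against -0.46. When all probe sets of a gene were averaged, the average TNF calls of Tgfbr2 and Smad3 were lost (adjusted p = 0.0578 and 0.232), and that of Skil was kept.

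**Figure D4:**
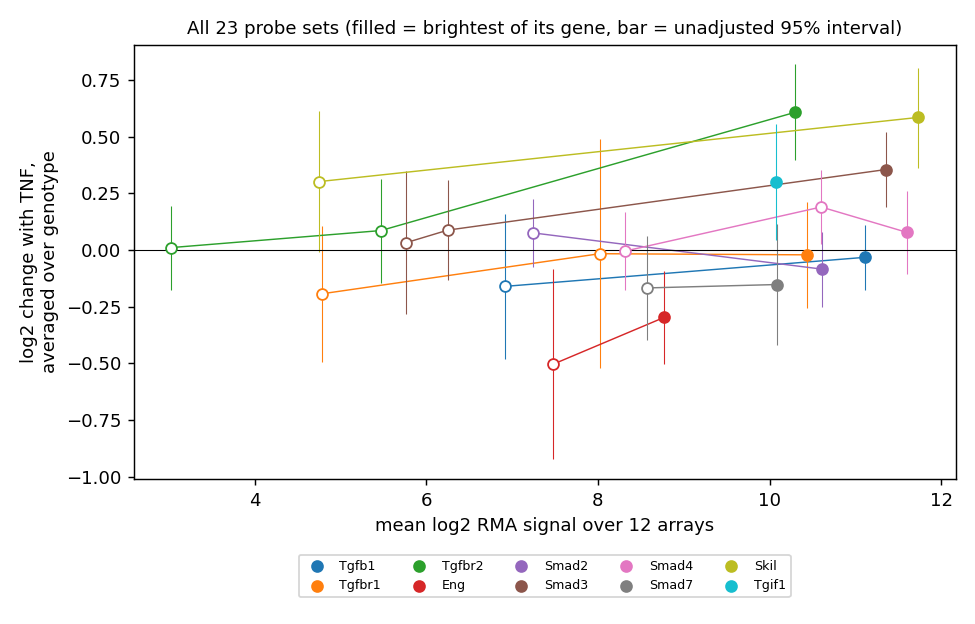
Log2 change with TNF, averaged over genotype, against the mean log2 signal over 12 arrays for the 23 probe sets of the 10 genes, with 95% intervals from limma. The 3 called probe sets, of Tgfbr2, Skil and Smad3, are the brightest of their genes, and the dim probe sets of the same genes, with means from 3.03 to 6.25, have changes nearer 0.

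The rest of the pathway was read from 6 lists of 89 genes, 84 of them measured. Averaged over genotype 10 rose and 10 fell with TNF, which is 23.8% of the measured genes, against 12.1% of all genes. The lists were chosen with earlier results of these data known, so their shares are not a test of the pathway. The targets that TGF-beta or BMPs are known to regulate had 2 higher, 6 lower and 8 not passing of 16. Of the other lists, receptors and co-receptors had 3 higher and 1 lower of 12, ligands and latency genes 1 and 2 of 12, SMADs and partners 2 and 0 of 16, inhibitors and turnover genes 2 and 0 of 15, and activin and BMP ligands 0 and 1 of 13.

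Among genes that store or free the ligand, Ltbp2, a latent TGF-beta binding protein, read 3.89, 4.96 and 5.06 on treated and 2.87, 2.96 and 2.85 on untreated arrays labelled mutant, and 5.55, 5.80 and 5.87 on treated and 3.18, 3.10 and 2.97 on untreated wild-type arrays. Treated arrays were above all untreated ones, and the untreated ones were near the floor, where changes in log2 signal are compressed. The change was 2.2 (standard error 0.17, limma, adjusted p = 1.85e-05). Furin, the protease that cleaves the TGF-beta precursor, read 10.93, 10.55 and 10.87 on treated and 11.58, 11.62 and 11.59 on untreated arrays labelled mutant, and 10.83, 10.55 and 10.93 on treated and 11.47, 11.56 and 11.60 on untreated wild-type arrays. Furin fell by 0.79 (limma, adjusted p = 0.000142), and Thbs1, which can free latent TGF-beta, fell by 1.28 (adjusted p = 0.01).

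Of the other receptors, Bambi, a decoy without a kinase, fell by 0.95 (limma, adjusted p = 0.00243). It read 8.02, 7.15 and 7.47 on treated and 8.48, 9.05 and 8.64 on untreated arrays labelled mutant, and 8.42, 7.99 and 8.03 on treated and 9.03, 8.78 and 8.79 on untreated wild-type arrays, and the treated arrays lay below all untreated ones. Tgfbr3, the co-receptor betaglycan, rose by 0.80 (adjusted p = 0.0325), the type I receptor Acvr1 by 0.53 (adjusted p = 0.0209) and the activin receptor Acvr2a by 0.22 (adjusted p = 0.0297). These 3 calls were lost without some arrays, with adjusted p up to 0.0782 in 8 of 12 cases for Tgfbr3, 0.0522 in 1 case for Acvr1 and up to 0.0768 in 7 cases for Acvr2a.

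Among SMADs, Smad1 and Smad5, which carry BMP signals, rose by 0.26 and 0.32 (limma, adjusted p = 0.0147 and 0.0487), and the Smad5 call was lost in 9 of 12 cases when 1 array was left out (adjusted p up to 0.116). Ski, the close relative of Skil, rose by 0.27 (adjusted p = 0.00354), and Tgif2, the relative of Tgif1, by 0.46 (adjusted p = 0.0204). The Tgif2 call was lost without treated replicate 2 labelled mutant or untreated replicate 2 labelled mutant (adjusted p up to 0.0537). Bmp4, a BMP ligand near the floor, fell by 0.36 (adjusted p = 0.0401), a call lost in 9 of 12 cases (adjusted p up to 0.0956).

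The targets that fell were led by Id1, an inhibitor of differentiation that BMPs induce, which read 7.93, 6.62 and 7.47 on treated and 8.97, 9.08 and 9.49 on untreated arrays labelled mutant, and 7.87, 7.57 and 7.42 on treated and 8.30, 9.40 and 9.43 on untreated wild-type arrays. All treated arrays were below all untreated ones, and the change was -1.63 (limma, adjusted p = 0.00169). Tgfbi, a matrix protein that monocytes also make, fell by 1.34 (adjusted p = 0.00289) and Id3 by 0.74 (adjusted p = 0.0464), the Id3 call being lost in 10 of 12 cases (adjusted p up to 0.0999). Cdkn1a, the cell-cycle inhibitor p21 and a target of p53 as well, read 10.82, 10.38 and 10.86 on treated and 11.43, 11.63 and 11.76 on untreated arrays labelled mutant, and 10.33, 10.09 and 10.59 on treated and 11.31, 11.33 and 11.26 on untreated wild-type arrays. It fell by 0.94 (adjusted p = 0.000275).

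Id2 and Klf10, named after their values were seen, fell by 0.69 and 0.33 (limma, adjusted p = 0.0045 and 0.00243). Against these stood Bhlhe40, a transcription factor, at 9.96, 10.04 and 9.97 on treated and 8.77, 8.67 and 8.56 on untreated arrays labelled mutant, and 10.08, 9.99 and 10.12 on treated and 9.45, 8.61 and 9.0 on untreated wild-type arrays. Bhlhe40 rose by 1.18 (adjusted p = 9.41e-05), and Junb, an AP-1 subunit that TNF is also known to induce, by 0.63 (adjusted p = 0.000628). Calls within the target list thus ran in both directions. With Xist and Eif2s3y as covariates 7 of the 20 calls in these lists were lost, with adjusted p of 0.105 for Tgfbr3, 0.225 for Acvr1, 0.188 for Smad5, 0.187 for Tgif2, 0.0721 for Id2, 0.0542 for Id3 and 0.14 for Bmp4. None of the 84 genes was called by limma for genotype at either treatment, for genotype on average or for the interaction. At an unadjusted p under 0.05 there were 11 with TNF (13.1%, against 5.6% of all genes), 3 without (3.57%, against 4.12%), 9 on average (10.7%, against 7.39%) and 8 for the interaction (9.52%, against 2.9%).

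**Figure D5:**
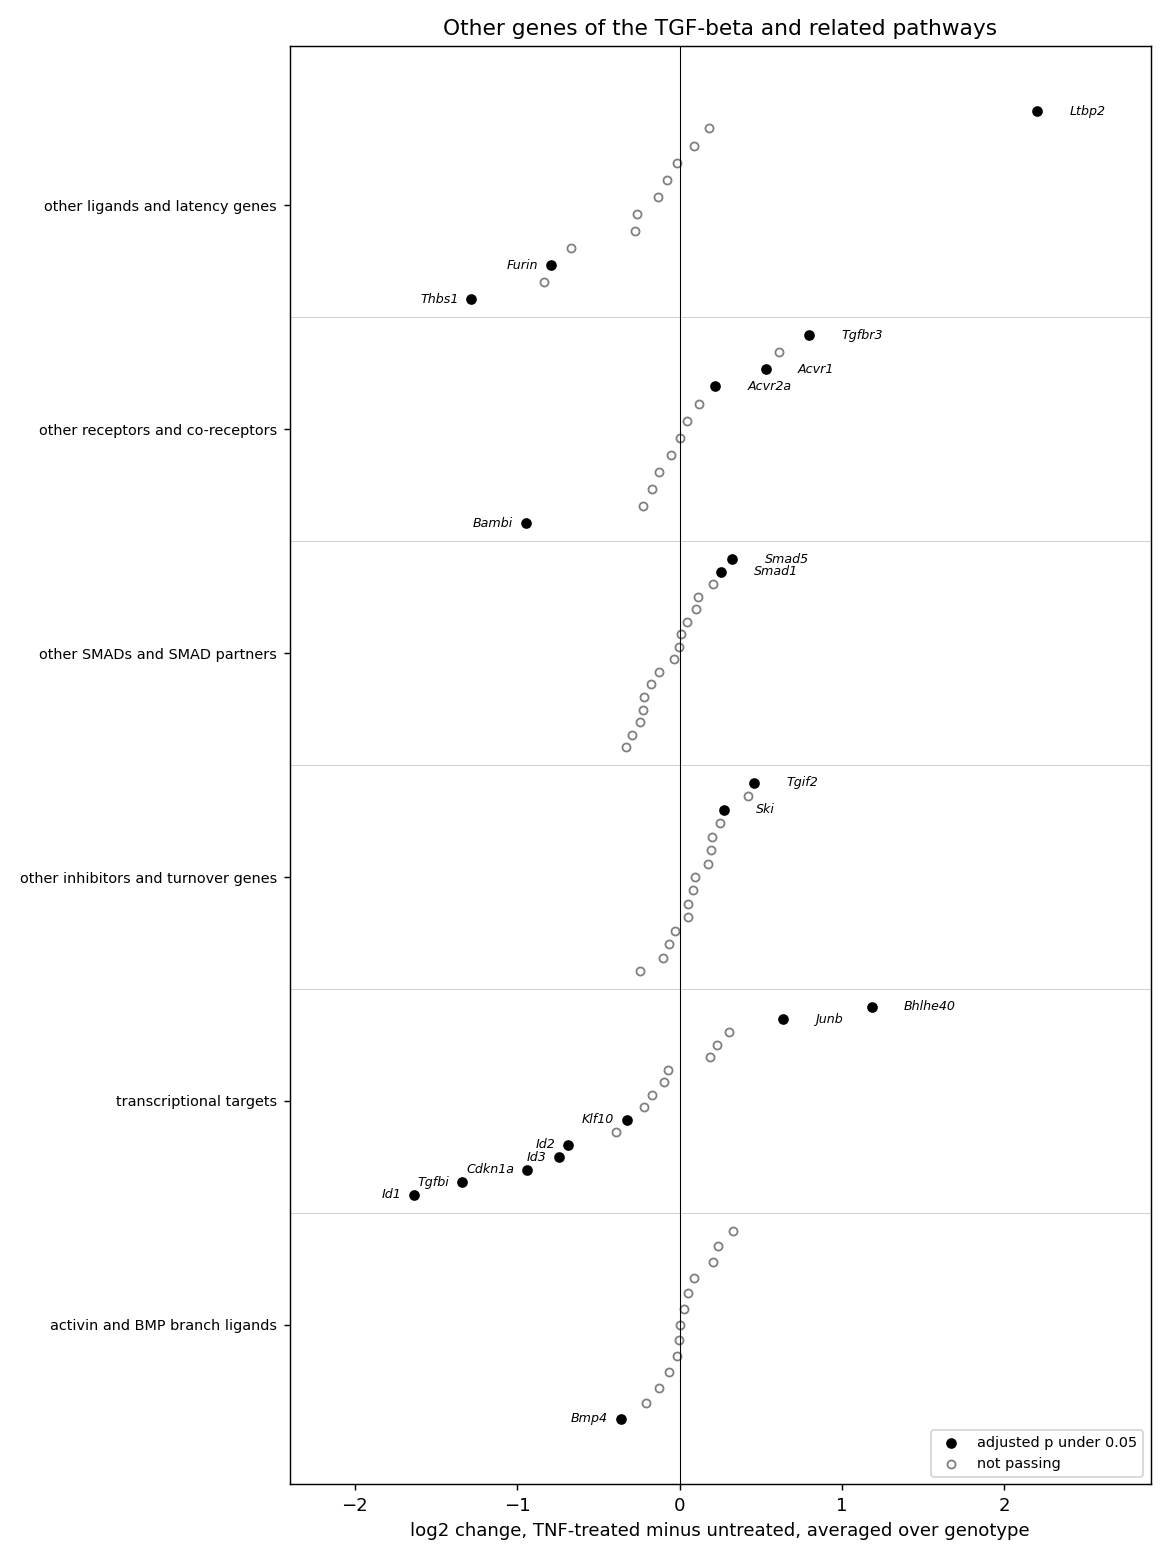
Log2 change with TNF (treated minus untreated, averaged over genotype) of the 84 measured genes in 6 lists of other TGF-beta and BMP pathway genes, 1 point per gene, filled and named where limma gave an adjusted p under 0.05. The 20 filled points fall on both sides of 0, and 6 of the 8 called targets lie below 0.

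The genes most like the called ones across the 12 arrays were found by the root mean square difference between array values centred on each gene's mean. Nearest to Tgfbr2 were Skil (0.097), Ctso (0.099) and Ift140 (0.102). Nearest to Skil were Anxa4 (0.077), Retreg1 (0.079) and Tgfbr2 (0.097), so Tgfbr2 and Skil stood on each other's lists. Nearest to Smad3 were Cbx6 (0.057), Wdfy4 (0.061) and Sema4b (0.074). The average change with TNF was 0.497 to 0.666 for the genes near Tgfbr2 or Skil, and 0.245 to 0.346 for those near Smad3. The distance takes in the TNF change itself and is the same in both directions. Nearness is therefore not evidence apart from the calls.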

How the data were processed

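The deposited values are log2 signals per probe set for 12 Affymetrix mouse arrays, made with RMA (robust multi-array average) by the authors, as the submitters' processing notes say, with no version stated. That the base is 2 was inferred from RMA and from the range of the values (2.14 to 14.94). Per the labels' protocols, 5 to 15 ng of RNA was amplified per array. RMA equalises array distributions, so a shift of all genes cannot be seen, and low signals are compressed. Of 45101 probe sets, 64 controls were left out, 34945 had 1 symbol, 932 several and 9160 were not listed. The brightest probe set with 1 symbol, by mean over all arrays, stood for a gene.

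Linear models were fitted per gene with limma 3.58.1 (R 4.3.3), with 4 group means over all 12 arrays, 7 contrasts, 2-sided tests and Benjamini-Hochberg adjustment over 18193 genes, at an adjusted p under 0.05. The script was tested on simulated data. All 10 members were named, and of the other lists up to the 4 largest called changes per direction. The members and lists were chosen with earlier results of these data known. The alternatives were median centring, cyclic loess, a filter on low values (9444 genes), the mean of probe sets, all probe sets, array weights (statmod 1.5.0), trended and robust moderation, a replicate block, only the groups compared, Xist and Eif2s3y as covariates, and leaving out each array. Promoter sequences are from RefSeq.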

Additional observations from a re-analysis of the deposited data

How the results depend on the processing

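Over the alternatives 0 calls were reversed. On arrays labelled mutant 2 of the 10 genes were called, against 0 with the mean of probe sets and 1 with Xist and Eif2s3y as covariates. In wild type 1 was called, against 2 after cyclic loess, 3 with the filter on low values, with trended and robust moderation or with array weights, and 0 with the mean of probe sets, all probe sets, only the groups compared or the covariates. On average 3 were called, against 1 with the mean of probe sets. The covariates lost the Smad3 call. Eng was called as well, as lower, with median centring, the filter on low values, array weights and the replicate block. Leaving out 1 array gave 0 to 2 calls on arrays labelled mutant, 0 to 2 in wild type, 3 to 4 on average and 0 to 0 for genotype and interaction. In the fit over all probe sets, leaving out 1 array gave 0 to 2 on arrays labelled mutant (2 with all arrays), 0 to 2 in wild type (0 with all) and 3 to 4 on average (3 with all), and the filter gave 1 in wild type.

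Replicate numbers were not taken to pair the samples in the main fit. Deviations of the 18 same-numbered pairs correlated at -0.159 to 0.278 (median 0.046), with 7 of 18 over 0.1. Those of the 36 other pairs correlated at -0.331 to 0.181 (median -0.024), with 6 of 36 over 0.1. Same-numbered arrays thus leaned towards higher correlations, and the reason was not tested. With the replicate block, Tgfbr2 and Skil were still called on arrays labelled mutant in the fit over genes (adjusted p = 0.0319 and 0.0382), against 0 of 23 in the fit over all probe sets. In wild type 0 of the 10 genes were called, and Eng passed for TNF on average (adjusted p = 0.0361). Eng also passed with the filter (adjusted p = 0.0376) and array weights (adjusted p = 0.0383).

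Of the other pathway genes called for TNF on average, the block lost Smad5 (adjusted p = 0.0591) and Tgfbr3 (adjusted p = 0.0548). Median centring lost Acvr2a, Smad5 and Tgif2 (adjusted p = 0.104, 0.133 and 0.0604), and cyclic loess Bmp4 and Id3 (adjusted p = 0.082 and 0.0765). The mean of probe sets lost Acvr2a, Smad5, Tgfbr3 and Tgif2 (adjusted p = 0.0609, 0.187, 0.0657 and 0.0933), and all probe sets Acvr2a, Bmp4, Id3 and Smad5 (adjusted p = 0.0523, 0.0596, 0.0645 and 0.0717).

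Of 1510 changes of single genes of the 10 under alternatives, 1470 kept direction and side of the threshold or were not called in either, 25 lost and 15 gained a call, and 114 not called in either changed sign. Over all genes, calls numbered 784 on arrays labelled mutant (444 to 1168 over alternatives), 913 in wild type (410 to 1255) and 2207 on average (1270 to 2779). For genotype they numbered 1 with TNF (0 to 9), 1 without (0 to 3) and 4 on average (2 to 6), and 0 for the interaction (0 to 1). The cause of these shifts was not tested. With 3 arrays a group, changes of the size seen for Smad3 and Skil passed in 1 genotype under some settings only.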
